A study of Bos taurus with 14 samples.

Results

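The genes described here encode enzymes of cholesterol synthesis: HMGCS1, IDI1, FDPS, FDFT1, SQLE, CYP51A1, MSMO1 and NSDHL. They were chosen by name, and every probe set whose only gene symbol in the platform annotation was one of the 8 names was taken. Of the 8 genes 7 were measured, by 10 of 24016 probe sets; IDI1 was not analysed here. All are enzymes of the synthesis pathway, and genes of cholesterol uptake are given as a separate list. The names were picked after genes of cholesterol synthesis had been seen to differ between long and short conceptuses in these arrays, so their values by length are a description and carry no test. Their values by embryo grade over all Grade 1 conceptuses, and by sex, were tested.

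RNA of 14 whole Holstein conceptuses on Day 15 of gestation, each on 1 Affymetrix bovine array, was compared by the morphological grade of the embryo and by conceptus length. All embryos came from superovulated donor cows inseminated with frozen semen of a single bull, were recovered on Day 6.5, and were carried by recipient heifers that received 2 to 6 embryos of the same grade. The groups were 5 long conceptuses from Grade 1 embryos (1 male, 4 female), 5 short ones from Grade 1 embryos (2 male, 3 female), 1 male from a Grade 1 embryo with no length given, and 3 from Grade 3 embryos (2 male, 1 female). The labels do not tie conceptuses to recipients or dams, so errors and p-values reflect only how these 14 conceptuses varied. Where 2 labels of 1 conceptus disagreed on length, the length characteristic was used, which placed it among the short ones as replicate 1.

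Cells build cholesterol from acetyl-CoA through mevalonate, isoprenoid diphosphates, squalene and lanosterol. The genes of the pathway share control by the sterol-sensing transcription factors of the SREBP family, which the escort protein SCAP carries out of the endoplasmic reticulum when sterols are scarce and which INSIG proteins retain there when sterols are plentiful. In ruminants this stage is one of rapid trophoblast elongation, a growth of membrane-rich epithelium before attachment to the uterus.

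Values are log2 units of signal, where a step of 1 is a doubling of signal. Over all probe sets the deposited values ran from 2.23 to 14.61, and array medians lay between 5.62 and 5.72. Of 6 measured trophectoderm markers the pregnancy signal IFNT2 averaged 14.53 and the epithelial keratin KRT18 14.47, followed by TFAP2A at 10.66, TEAD4 at 8.25, ELF5 at 6.64 and KRT8 at 6.16. Markers of cells that could come along from the uterus ranged from 3.17 (the oxytocin receptor OXTR) to 6.68 (the mucin MUC1) on average over 6 endometrial genes, from 3.05 (the leukocyte marker PTPRC) to 6.46 (CD8A) over 7 blood and immune genes, and from 3.32 (HBA) to 5.07 (ALAS2) over 5 erythroid genes. MUC1, MSX1 (5.92) and CD8A thus read above the array medians. In whole conceptuses, fewer cells of a type and less RNA per cell cannot be told apart.

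By brightest probe set, all 7 measured genes had their highest group mean in the long conceptuses. In 5 of the 7 genes (HMGCS1, FDPS, CYP51A1, MSMO1 and NSDHL) every long conceptus lay above every short one, a pattern found in 3.58% of the 9155 named genes; since length entered the choice of these genes, nothing is read from that count. The long minus short differences ran from 0.23 in FDFT1 to 1.11 in CYP51A1, with a median of 0.50 beside -0.03 over all named genes. By these probe sets, the mean of the Grade 3 conceptuses lay nearer to the short than to the long group mean in each of the 7 genes. Single conceptuses could differ, as Grade 3 replicate 2 did in NSDHL, at 9.98 beside a long mean of 9.95. Both reference means come from values that served for the choice of genes, so nothing is read from this placing.

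**Figure D1:**
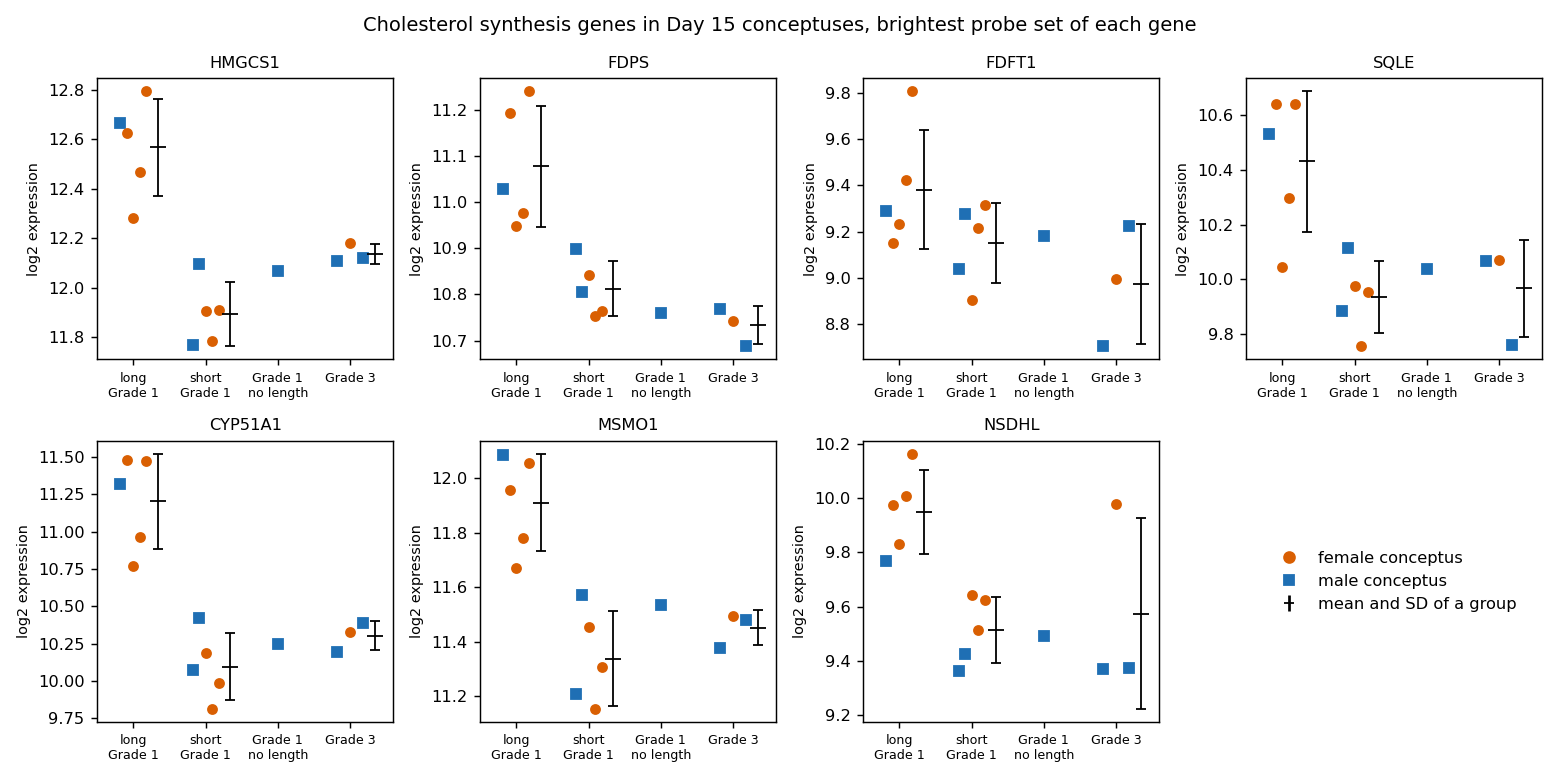
Log2 signal of the 7 measured cholesterol synthesis genes (brightest probe set) in each conceptus by group; circles are females, squares males, and the black marks give the mean and SD of each group of 3 or 5, each gene on its own axis. In CYP51A1 the long conceptuses lie between 10.77 and 11.48 and the short ones between 9.81 and 10.42, with Grade 3 between 10.19 and 10.39.

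HMGCS1, the cytosolic enzyme that joins acetoacetyl-CoA and acetyl-CoA into HMG-CoA, opens the committed part of the pathway. Its brightest probe set read 12.67, 12.63, 12.28, 12.47 and 12.79 in the long conceptuses and 11.77, 12.09, 11.91, 11.79 and 11.91 in the short ones. The Grade 3 conceptuses read 12.11, 12.18 and 12.12, and the conceptus without a length 12.07. The lowest long value thus stood above the highest value of every other group, and the 3 Grade 3 values, all above the highest short value of 12.09, were the most tightly grouped. The means were 12.57 ± 0.20 (SD, n = 5) in long, 11.89 ± 0.13 (SD, n = 5) in short and 12.14 ± 0.04 (SD, n = 3) in Grade 3. The long mean exceeded the short mean by 0.67 (1.59 fold), and Grade 3 exceeded short by 0.24. A second, dimmer probe set of HMGCS1 gave 6.84 ± 0.41 in long and 6.11 ± 0.30 in short (SD, n = 5), a difference of 0.73, but there the ranges met: long values ran from 6.37 to 7.33 and short ones from 5.76 to 6.51. On that probe set Grade 3 read 5.90, 6.61 and 6.26, with a mean of 6.26 ± 0.35 (SD, n = 3). It thus overlapped both lengths there and was not the most tightly grouped.

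FDPS makes farnesyl diphosphate, the branch point toward sterols, ubiquinone, dolichol and protein prenylation. It read 11.03, 11.19, 10.95, 10.98 and 11.24 in the long conceptuses against 10.90, 10.81, 10.84, 10.75 and 10.76 in the short ones. Grade 3 read 10.77, 10.74 and 10.69, and the conceptus without a length 10.76. The groups of different length did not overlap, but by a margin of only 10.95 against 10.90. The difference of 0.26 (1.20 fold) came from means of 11.08 ± 0.13 and 10.81 ± 0.06 (SD, n = 5). By brightest probe set, FDPS was 1 of 2 members in which Grade 3, at 10.73 ± 0.04 (SD, n = 3), had a lower mean than the short group.

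FDFT1, squalene synthase, commits farnesyl units to sterols, and its 3 probe sets did not give 1 answer. The brightest read 9.29, 9.15, 9.23, 9.42 and 9.81 in long and 9.04, 9.28, 8.90, 9.21 and 9.32 in short conceptuses. These ranges overlapped, and only long replicates 4 and 5 lay above all short values. The second probe set read 8.05, 8.17, 7.88, 7.95 and 8.52 in long and 7.47, 7.66, 7.52, 7.28 and 7.52 in short conceptuses, with no overlap. The differences were thus 0.23 and 0.62 for the same gene, and the third probe set, at 2.80 to 3.19 on all arrays, lay near the floor of the values and gave 0.05. Grade 3 read 8.71, 8.99 and 9.22 on the brightest probe set, with a mean of 8.97 ± 0.26 (SD, n = 3). By that probe set FDFT1 was the other member in which Grade 3 lay under the short mean, of 9.15 ± 0.17 (SD, n = 5). The other probe sets had the opposite sign. The second read 7.55 ± 0.21 in Grade 3 (SD, n = 3) and 7.49 ± 0.14 in short (SD, n = 5), a difference of 0.06. The third, near the floor, gave 0.07.

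SQLE, squalene epoxidase, is a rate-limiting oxygen-dependent step after squalene. It read 10.53, 10.64, 10.05, 10.30 and 10.64 in the long conceptuses, 9.88, 10.11, 9.98, 9.75 and 9.95 in the short ones, and 10.07, 10.07 and 9.76 in Grade 3. Long replicate 3, at 10.05, fell below short replicate 2 at 10.11, the only crossing between the lengths. The means were 10.43 ± 0.26, 9.94 ± 0.13 (SD, n = 5) and 9.97 ± 0.18 (SD, n = 3), so that long exceeded short by 0.50 (1.41 fold) and Grade 3 differed from short by 0.03.

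CYP51A1, the cytochrome P450 that removes the first methyl group of lanosterol, had the largest difference by length of the 7 genes. It read 11.32, 11.48, 10.77, 10.97 and 11.47 in long and 10.08, 10.42, 10.19, 9.81 and 9.99 in short conceptuses. Grade 3 read 10.19, 10.33 and 10.39, and the conceptus without a length 10.25. Every long value was above the values of all other conceptuses, while Grade 3 lay inside the range of the short group. The means of 11.20 ± 0.32 and 10.10 ± 0.23 (SD, n = 5) differed by 1.11 (2.15 fold), and Grade 3 stood at 10.30 ± 0.10 (SD, n = 3), 0.90 below the long mean.

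MSMO1 and NSDHL act later, on the methyl groups at another carbon of the sterol. MSMO1 is the methyl oxidase and NSDHL the dehydrogenase that follows it. MSMO1 read 12.08, 11.96, 11.67, 11.78 and 12.06 in long and 11.21, 11.57, 11.45, 11.15 and 11.31 in short conceptuses. Grade 3 read 11.38, 11.49 and 11.48, within the short range, and the conceptus without a length 11.54. The long and short means, 11.91 ± 0.18 and 11.34 ± 0.17 (SD, n = 5), differed by 0.57 (1.49 fold). NSDHL read 9.77, 9.97, 9.83, 10.01 and 10.16 in long, 9.36, 9.42, 9.64, 9.51 and 9.62 in short, and 9.37, 9.98 and 9.37 in Grade 3 conceptuses. The lengths did not overlap, with means of 9.95 ± 0.16 and 9.51 ± 0.12 (SD, n = 5) that differed by 0.44 (1.35 fold). In Grade 3 the values of NSDHL were split, with replicate 2 at the level of the long conceptuses and replicates 1 and 3 at the low end of the short ones.

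Averaged over the 7 genes after each was centred on its mean, the conceptuses fell in an order that kept the lengths apart. Since length entered the choice of these genes, nothing is read from that separation, and the values are given as a description. Short replicates 4 and 1 were lowest, at -0.32 and -0.28, followed by Grade 3 replicate 1 at -0.23, short replicates 5 and 3 at -0.19 each and Grade 3 replicate 3 at -0.17. The conceptus without a length stood at -0.13, short replicate 2 at -0.07 and Grade 3 replicate 2 at -0.06. The long conceptuses came last: replicate 3 at 0.08, replicate 4 at 0.24, replicate 1 at 0.35, replicate 2 at 0.40 and replicate 5 at 0.57. The range within the long group, 0.08 to 0.57, was wider than that within the short group, -0.32 to -0.07, and long replicate 3, the lowest of them, was the long conceptus with the lowest reading of HMGCS1, FDPS, SQLE, CYP51A1 and MSMO1.

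The 7 genes were not equally alike across the 14 conceptuses. As the root mean square difference between centred log2 profiles, the closest pair was HMGCS1 and MSMO1 at 0.0794 and the most distant FDFT1 and CYP51A1 at 0.456. Against the mean profile of the members, MSMO1 (0.0758), HMGCS1 (0.0831) and SQLE (0.0961) were nearest, and CYP51A1 (0.279) and FDFT1 (0.219) farthest. CYP51A1 varied most, with an SD of 0.56 over the 14 conceptuses, and FDPS least, with 0.17. In all 5280 genes, the 7 members included, varied enough to be compared. Outside the members, the nearest profile to their mean was that of LSS at 0.119, the lanosterol synthase that acts between SQLE and CYP51A1. STMP1 (0.127), BIRC3 (0.135), HP1BP3 (0.142), SLC11A1 (0.149), AHCYL1 (0.150), PGRMC1 (0.155), ACER3 (0.156), NDEL1 (0.158) and PPDPF (0.158) followed. PGRMC1 is a membrane protein that binds INSIG1 and SCAP and supports P450 enzymes of the sterol pathway. All 10 were higher on average in long than in short conceptuses, by 0.31 to 0.52, as the measure of likeness selects for.

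**Figure D2:**
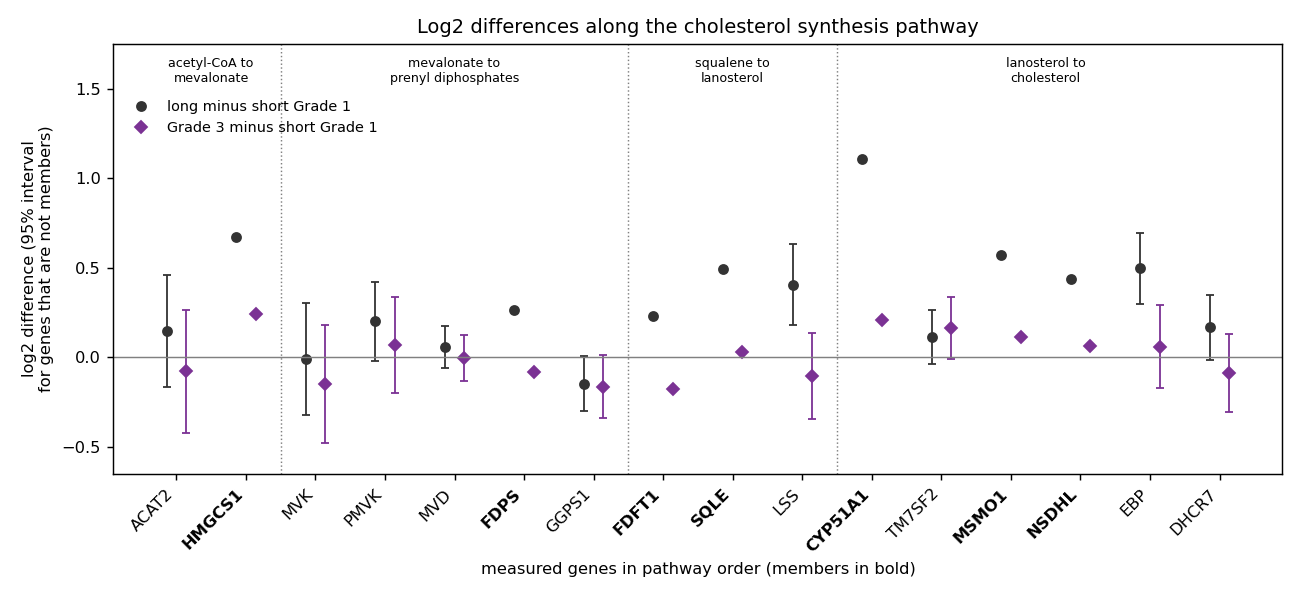
Log2 differences of the 16 measured cholesterol synthesis genes in pathway order; circles are long minus short and diamonds Grade 3 minus short, both against the same 5 short conceptuses, with 95% intervals from limma for the genes outside the chosen set. By brightest probe set, the chosen genes (bold) lie at 0.23 to 1.11 for length and at -0.18 to 0.24 for Grade 3.

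In the comparison of embryo grades, the 7 genes were all lower on average in the 3 Grade 3 than in the 11 Grade 1 conceptuses, and none passed. limma called 0% of the named genes (0 of 24016 probe sets, with 1215 at an unadjusted p under 0.05), so 0 of 7 equals the background. FDFT1 differed by -0.28 (95% interval -0.59 to 0.02), FDPS by -0.19 (-0.41 to 0.02) and CYP51A1 by -0.31 (-1.01 to 0.39), with limma adjusted p-values of 0.996, 0.999 and 0.999. SQLE, MSMO1, NSDHL and HMGCS1 differed by -0.20, -0.17, -0.14 and -0.08, and the lower bounds of their intervals lay between -0.57 and -0.49. The median over the 7 genes was -0.19, beside -0.00194 over all named genes. For NSDHL the difference was -0.02 with sex as a covariate. Males made up 2 of 3 Grade 3 and 4 of 11 Grade 1 conceptuses. As Grade 3 held 1 female, sex and that single conceptus cannot be told apart there. With 1 conceptus left out, FDFT1 ran from -0.41 (without Grade 3 replicate 3) to -0.15 (without Grade 3 replicate 1), and NSDHL from -0.34 (without Grade 3 replicate 2) to -0.03 (without Grade 3 replicate 1 or 3), with -0.09 without long replicate 5. SQLE stood at -0.10 without Grade 3 replicate 3. HMGCS1 ran from -0.12 (without short replicate 1 or 4) to -0.02 (without long replicate 5), with -0.03 and -0.04 without long replicates 1 and 2. No member passed in any of these fits. The dimmest probe set of FDFT1 had the other sign, at 0.05, and the dimmer one of HMGCS1 stood at -0.21.

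The Grade 1 mean joins the 2 lengths, so Grade 3 was also set beside each of them by brightest probe sets. This used the conceptuses that had served for the choice of genes. Against the long group, Grade 3 was lower by 0.34 (FDPS) to 0.90 (CYP51A1) in all 7 genes. In 4 of the 7, HMGCS1, FDPS, CYP51A1 and MSMO1, every Grade 3 value was below every long one, as in 3.41% of named genes; nothing is read from this count, since the long values served for the choice of genes. Against the short group the differences were 0.24 in HMGCS1, 0.21 in CYP51A1, 0.11 in MSMO1, 0.06 in NSDHL, 0.03 in SQLE, -0.08 in FDPS and -0.18 in FDFT1, with overlapping ranges in 6 of 7 genes. HMGCS1 was the exception, its 3 Grade 3 values lying just above the short ones, as in 2.45% of named genes. Nothing is read from this either, since the short values served for the choice of genes. On the dimmer probe set of HMGCS1, Grade 3 and short overlapped. For FDFT1 the sign against short was the opposite on its other probe sets. Over all probe sets limma called 0 in each of these contrasts.

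Sex was tested with grade as a covariate, and NSDHL, whose gene is X-linked, had the largest difference of the members without passing. Among the long conceptuses the 1 male read 9.77 and the 4 females 9.97, 9.83, 10.01 and 10.16. Among the short ones the males read 9.36 and 9.42 and the females 9.64, 9.51 and 9.62, and in Grade 3 the males read 9.37 and 9.37 and the female 9.98. The male without a length read 9.49. Within each of the 3 groups that held both sexes, every male was below every female, a pattern seen in 3.77% of named genes and in no other of the 7. The means of 9.47 ± 0.16 (SD, n = 6) in males and 9.84 ± 0.23 (SD, n = 8) in females gave a difference of -0.37 ± 0.11 (SE), with an unadjusted p of 0.00411 and an adjusted p of 0.285 in limma.

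**Figure D3:**
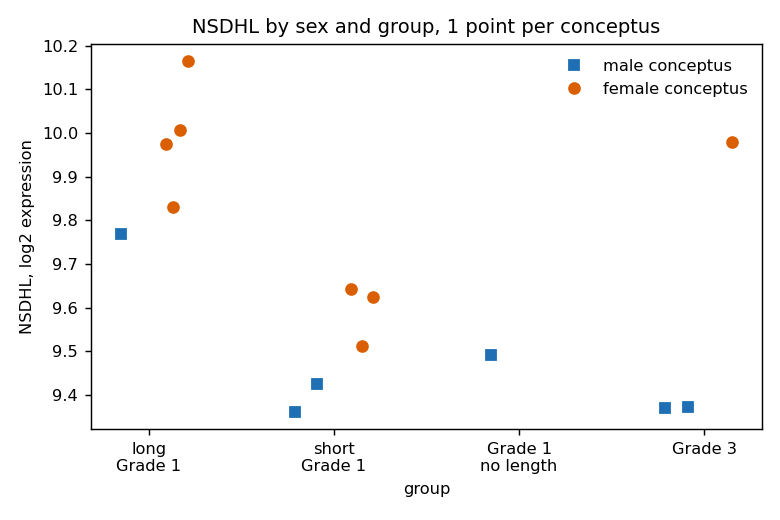
Log2 signal of NSDHL in each conceptus by group and sex; each point is 1 conceptus. Within the long, short and Grade 3 groups every male point lies below every female point, and the split of Grade 3 (9.37 and 9.37 against 9.98) follows sex.

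limma called 0.535% of named genes for sex, and 0 of the 7 members. With the 4 groups in place of grade as covariate, NSDHL differed by -0.31 (adjusted p = 0.128). Over all alternatives and with each conceptus left out, its adjusted p stayed between 0.128 and 0.547. The other 6 members differed by -0.13 to -0.03, and their direction was not stable: with the 4 groups as covariate HMGCS1 stood at 0.05, FDPS at 0.0079, SQLE at 0.04, CYP51A1 at 0.15 and MSMO1 at 0.09, whereas FDFT1 stood at -0.04. Of the wider lists, the X-linked gene MBTPS2, the site-2 protease that releases SREBPs, came nearest to the threshold, at -0.32 ± 0.07 (SE, adjusted p = 0.0945). EBP, an X-linked sterol isomerase of the same pathway, differed by -0.19 (adjusted p = 0.802). Among female conceptuses alone, long exceeded short by 0.40 in NSDHL, beside 0.44 in both sexes together.

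The rest of the pathway was followed through 67 measured genes in 6 lists, of which 8 were called higher and 2 lower in long conceptuses by limma. Over all named genes 3.27% were called higher and 6.24% lower. The lists' genes had been seen in part in earlier results on these arrays, EBP and LSS among them, so these calls are not independent of the choice of the 8 members.

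In the remaining steps of synthesis 2 of 9 measured genes rose and 0 fell, with a median of 0.14. EBP read 9.97, 10.17, 10.04, 10.21 and 10.22 in long and 9.77, 9.58, 9.73, 9.70 and 9.34 in short conceptuses, a rise of 0.50 ± 0.09 (SE, adjusted p = 0.0145) with no overlap. LSS rose by 0.41 ± 0.10 (SE, adjusted p = 0.0423), from 6.96 ± 0.09 to 7.37 ± 0.23 (SD, n = 5). EBP kept its call with each conceptus left out, whereas LSS kept it only when long replicate 3 was omitted, and adjusted p otherwise reached 0.101 (long replicate 2 omitted). The second brightest probe set of LSS had the opposite sign (-0.24), and the call of LSS was also lost with arrays centred on their medians (adjusted p = 0.0576) and with the title prefix as a random block of estimated correlation (adjusted p = 0.0504), where EBP kept its call. The phosphomevalonate kinase PMVK (0.20), the late reductase DHCR7 (0.17) and GGPS1 (-0.15), which draws farnesyl units toward geranylgeranyl diphosphate, did not pass. MVK, the first kinase after mevalonate, stood at -0.01. The early mevalonate kinases and MVD thus had differences of -0.01 to 0.20, all under those of HMGCS1 before them and of FDPS after them; the difference between these steps was not tested.

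Among 10 measured genes of lipoprotein receptors and uptake, 1 rose and 1 fell, with a median of 0.03. NPC1, which exports cholesterol from lysosomes after lipoprotein uptake, read 10.15, 10.13, 10.21, 10.39 and 10.58 in long and 9.70, 9.88, 9.56, 9.55 and 9.37 in short conceptuses. It rose by 0.68 ± 0.11 (SE, adjusted p = 0.0102), and Grade 3 read 10.08, 9.87 and 10.44, of which 2 lay above the short range. MYLIP, a ubiquitin ligase that limits lipoprotein uptake, read 9.11, 9.25, 9.98, 9.68 and 9.61 in the long conceptuses. Short replicates 1, 2, 4 and 5 read 10.08, 10.34, 10.11 and 10.45, and short replicate 3 lay just above the highest long value. It fell by 0.67 ± 0.15 (SE, adjusted p = 0.0309), with no overlap. NPC1 kept its call with each conceptus left out. MYLIP lost it in 6 of the 10 fits (omitting long replicates 1, 2 and 5 or short ones 2, 4 and 5), where its adjusted p reached 0.0772 on omission of long replicate 2. The HDL receptor SCARB1 (0.42, adjusted p = 0.0633), its lysosomal relative SCARB2 (0.26, 0.0632) and the lysosomal acid lipase LIPA (-0.67, 0.175) did not pass.

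**Figure D4:**
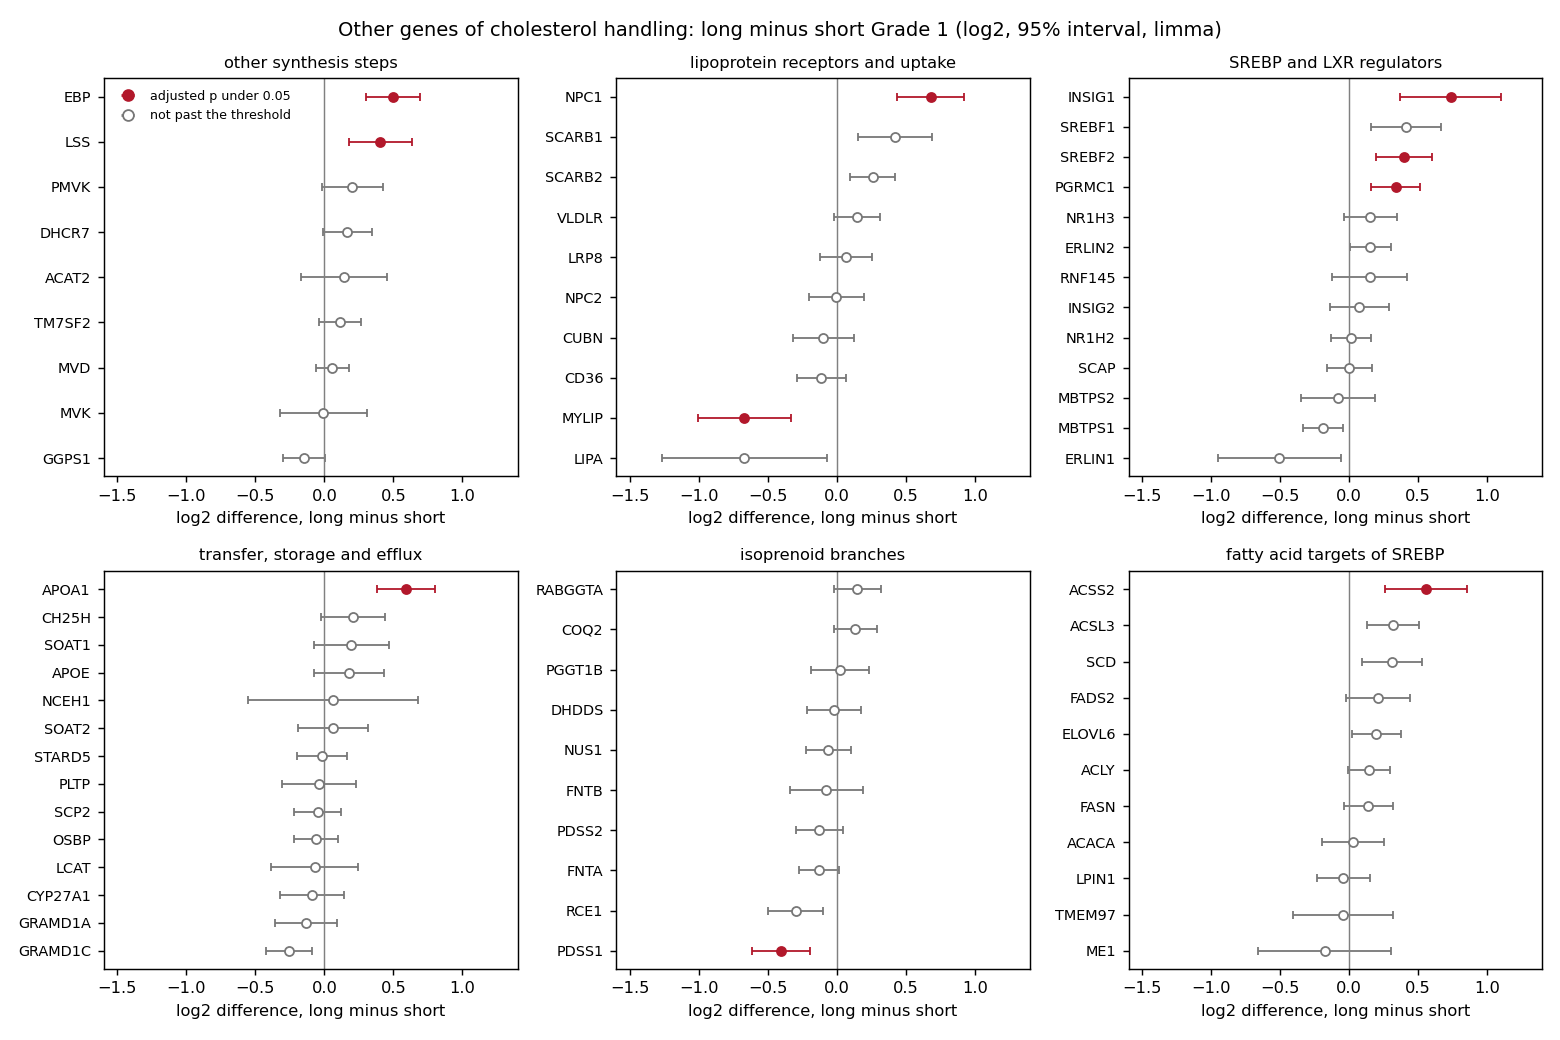
Long minus short log2 differences with 95% intervals (limma) for the 67 measured genes of the 6 wider lists; filled red points have adjusted p under 0.05 over 24016 probe sets. Of these points 8 lie above 0, led by INSIG1 at 0.73 and NPC1 at 0.68, and 2 lie below, MYLIP at -0.67 and PDSS1 at -0.41.

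Of 13 measured regulators of SREBP and of the oxysterol receptor LXR, 3 rose and 0 fell, with a median of 0.15. INSIG1, both a brake on SREBP processing and one of its target genes, rose by 0.73 ± 0.17 (SE, adjusted p = 0.0298); it read 9.31, 9.31, 8.85, 9.44 and 9.75 in long and 8.81, 8.99, 8.33, 8.41 and 8.46 in short conceptuses, with long replicate 3 inside the short range. SREBF2, the SREBP that mainly drives cholesterol genes, rose by 0.40 ± 0.09 (SE, adjusted p = 0.0326), from 7.89 ± 0.21 to 8.29 ± 0.06 (SD, n = 5). PGRMC1 rose by 0.34 ± 0.08 (SE, adjusted p = 0.0345). These 3 calls were fragile. When conceptuses were omitted singly, SREBF2 stayed called on omission of short replicates 1, 3 and 5 or long replicate 3, PGRMC1 on omission of short 2 and 3 or long 3, and INSIG1 on omission of short 1 and 2 or long 3. In the other fits adjusted p reached 0.0771 for SREBF2 (long replicate 2 omitted), 0.083 for PGRMC1 and 0.074 for INSIG1 (short replicate 4 omitted for both). The dimmer probe set of PGRMC1 stood at -0.04. SREBF1, which mainly drives fatty acid genes, did not pass (0.41, adjusted p = 0.0574), nor did ERLIN1 (-0.51) and MBTPS1 (-0.19); SCAP stood at 0.00098.

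Of 14 genes of sterol transfer, storage and efflux, 1 rose and 0 fell, with a median of -0.03. APOA1, the main protein of HDL, rose by 0.59 ± 0.10 (SE, adjusted p = 0.0098) and kept its call with each conceptus left out; it read 13.12, 13.28, 12.96, 13.21 and 13.31 in long and 12.65, 12.69, 12.78, 12.38 and 12.43 in short conceptuses. Grade 3, at 13.10, 13.01 and 13.19, lay in the long range of APOA1. CH25H (0.21), SOAT1, which esterifies cholesterol, and GRAMD1C (-0.26) did not pass. Of 10 genes of the isoprenoid branches 0 rose and 1 fell: PDSS1, which builds the ubiquinone side chain, fell by 0.41 ± 0.10 (SE, adjusted p = 0.033), with 0.12 on its dimmer probe set. Its call held only on omission of short replicates 1 and 2 or long replicate 4, and adjusted p reached 0.0812 when long replicate 2 was omitted. Of 11 SREBP targets, most of fatty acid synthesis, 1 rose: ACSS2, which activates acetate to acetyl-CoA, rose by 0.55 ± 0.14 (SE, adjusted p = 0.0366) and stayed called only on omission of long replicate 1 or short replicates 3 and 5, with adjusted p up to 0.0882 (long replicate 2 omitted). The desaturase SCD (0.31), the acyl-CoA synthetase ACSL3 (0.32) and ELOVL6 (0.20) did not pass by their brightest probe sets. Another probe set of ACSL3 did, at 0.50 (adjusted p = 0.0327).

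Some markers of other cell types differed with length, mostly in single genes. Of 8 measured hypoblast markers 2 were called higher, RBP4 (1.30, adjusted p = 0.0167) and APOA1, while 4 were higher and 4 lower on average with a median of -0.03, and the mean level of the list ran from 7.85 to 8.04 in long and from 7.51 to 7.91 in short conceptuses. Of 3 epiblast markers, all lower on average, DNMT3B was called (-0.39), with list means of 5.56 to 5.99 and 5.94 to 6.44. Of 6 trophectoderm markers TFAP2A was called higher (0.38), while 3 were higher and 3 lower on average with a median of -0.06, with list means of 10.01 to 10.14 and 10.05 to 10.16, and of 7 blood and immune markers CD8A was called lower (-0.84) and 6 were lower on average, with list means of 4.30 to 4.56 and 4.43 to 4.70. None of 6 endometrial or 5 erythroid markers was called. The part of cell composition in the differences of the synthesis genes was not tested.

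Conceptus titles share prefixes whose meaning the labels do not state, and 2 prefixes held both lengths. No prefix held both grades, and 2 of the 3 Grade 3 conceptuses shared a prefix. The differences by grade thus cannot be told apart from differences between prefixes. In the prefix that held 2 long conceptuses and 1 short one, CYP51A1 was higher in long by 0.98, HMGCS1 by 0.55, SQLE by 0.47, MSMO1 by 0.45, NSDHL by 0.45 and FDPS by 0.31, and FDFT1 stood at -0.05. In the prefix that held 1 long conceptus and 2 short ones the same differences were 0.77, 0.44, 0.18, 0.37, 0.25, 0.15 and, for FDFT1, 0.17. Since 5 of the 7 genes do not overlap between the lengths, the sign of these values is fixed for them by the choice of genes, and the values are given for their size. With the prefix as a fixed block the median over the 7 genes was 0.35, with the conceptus of disagreeing labels counted as long 0.39, and among female conceptuses alone 0.51. Of the 67 genes in the wider lists, 1 was called higher (SREBF1, 0.60, adjusted p = 0.0474) and 0 lower with the prefix block, where EBP, NPC1 and APOA1 had limma adjusted p-values of 0.102, 0.110 and 0.145. With that conceptus counted as long, 3 were called higher (EBP, SREBF1 and SCARB2) and 0 lower, and NPC1 and APOA1 missed the threshold at 0.058 and 0.060.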

How the data were processed

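Each value is the log2 expression of a probe set as deposited by the authors. The submitters' processing notes name RMA and Affymetrix Expression Console; their versions, and whether all arrays were processed in one run, are not given in the sources consulted. RMA corrects background, equalises array distributions and combines the probes of a set, which compresses dim signals. Per the labels' protocols, 250 ng of RNA was labelled with biotin. Arrays carry no read depth, and their number limits the precision.

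The 112 control probe sets were left out. Symbols came from the platform annotation (13292 probe sets with 1 symbol, 86 with several, 10638 with none), of which 13263 matched the RefSeq table of ARS-UCD2.0, used only for names and X linkage. The brightest probe set on average stood for its gene. Every probe set of a member is described by length, but not for every other comparison. limma 3.58.1 (lmFit, eBayes) in R 4.3.3 was fitted to all 24016 probe sets, two-sided, with Benjamini-Hochberg adjustment and a threshold of 0.05: long against short (5 and 5), Grade 3 against Grade 1 (3 and 11) and male against female with grade as covariate (6 and 8). The design text's 4 Grade 1 conceptuses for the grade comparison are not named, so all 11 entered. The fit was tested on simulated data, with noise drawn independently for each array and no effect of title prefix. The noise SD came from a fit of the 4 groups, and no length difference was simulated for grade or sex. Changes of 1.25 fold were called in 30% of cases by length, 36% by grade and 36% by sex. Changes of 1.5 fold were called in 94%, 78% and 90%. False calls made up 5.39%, 4.43% and 7.91% of all calls. The real fits for grade and sex pool the lengths, so the simulated shares called can overstate what those fits would call.

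Members and lists were chosen with earlier results of these data known. Named outside the members were list genes past the length threshold, up to 3 per list with the smallest p that missed it, and the 10 most alike in profile among genes with an SD of at least 0.141, set from that of the members' mean profile. Genes named for pathway position or X linkage (MVK, SCAP, MBTPS2, EBP for sex) were chosen after their values were seen. Alternatives were array centring, a second quantile normalisation, a filter at a mean of 5, trend and robust eBayes, sex as covariate, title prefix as block, the other label of the disputed conceptus, other probe sets, each conceptus left out and, added after the data were seen, females only and values within a prefix. Sequences were not used here. Some genes of the lists are not reported here.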

Additional observations from a re-analysis of the deposited data

How the results depend on the processing

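Replicate numbers were given in accession order and tie no conceptuses together, so the block used was the title prefix. The median difference of the 7 measured members by length ran from 0.35 to 0.59 over the refits; since they were chosen for this difference, and 5 of them do not overlap between the lengths, their sign could hardly turn. Calls over all probe sets varied: 1577 by length became 2403 with sex as covariate, 112 with a fixed block for title prefix, 492 with the disputed conceptus counted as long, 903 in females only and 460 to 1697 with 1 conceptus left out. The split of 648 higher and 929 lower turned to 743 and 723 after a second quantile normalisation. Of the 67 pathway genes outside the members, 8 higher and 2 lower became 1 and 0 with the prefix block, 3 and 0 with the disputed conceptus as long, 5 and 3 in females only, 12 and 3 with the filter at a mean of 5, 11 and 3 with sex as covariate, 11 and 2 with trend and robust eBayes, and 3 to 8 higher and 0 to 3 lower with 1 conceptus left out; the lowest counts of 3 higher came without long replicates 2, 4 and 5 or short replicate 4. Fewer conceptuses inform some of these fits. The causes of the changed counts were not tested.

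By sex 87 probe sets were called, and 49 to 126 with 1 conceptus left out; the low end came without the conceptus of no length. Grade gave 0 calls, and 0 to 2 with 1 left out (2 without Grade 3 replicate 1). Grade 3 against long gave 0 to 1 and against short 0 to 4. Of 38 dimmer probe sets in 26 genes, 13 in 11 genes had the opposite sign by length, 0 of them called; among called genes these were LSS (-0.24), PGRMC1 (-0.044) and PDSS1 (0.12). Signs by sex turned for HMGCS1 (0.050), FDPS (0.0079), SQLE (0.044), CYP51A1 (0.15) and MSMO1 (0.087) with 4 groups as covariate. With 1 conceptus left out, the sex difference ran from -0.23 to 0.0017 in HMGCS1 and from -0.16 to 0.063 in MSMO1. With 3 Grade 3 conceptuses set against Grade 1 ones of both lengths, the interval for CYP51A1 by grade reached from -1.01 to 0.39. The SE was 0.33 in that fit, where the Grade 1 conceptuses had an SD of 0.62. In the fit of 4 groups the SE of Grade 3 against long was 0.17, with the same 3 Grade 3 conceptuses.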
